A study of Mus musculus with 9 samples.

Results

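Transcript counts of 10 smooth muscle contractile genes (Acta2, Actg2, Myh11, Myl9, Cnn1, Tagln, Cald1, Lmod1, Tpm1 and Tpm2) were followed through 9 mouse RNA sequencing libraries. The genes were chosen by name as a list of smooth muscle and myofibroblast contractile genes, and all 10 were found among the 56481 gene symbols of the table. The libraries form 3 groups of 3. Cells induced towards a corneal endothelial fate (iCEC) were neural crest cells grown in 5% knockout serum replacement (KSR) with 5 µM SB431542, a blocker of the TGF-β type I receptor, in a medium renewed every 2 days. Their clusters appeared by day 4 and the colonies were examined on day 12. Primary corneal endothelial cells (pCEC), whose donor age the labels do not give, and primary neural crest cells (pNCC) from E13.5 mouse embryos were kept in 10% fetal bovine serum, with no inhibitor named. No strain, transgene or other genetic change is named for any group. The inhibitor, the medium and the change of cell state cannot be told apart in iCEC.

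Smooth muscle contracts when myosin II filaments pull on actin filaments that carry tropomyosin, calponin and caldesmon. Most genes of this apparatus are switched on by serum response factor (SRF), which binds the CArG box of DNA together with its partners of the myocardin family. TGF-β and serum are known inducers of the same genes, and Acta2 is the usual marker of myofibroblasts. Neural crest cells give rise to smooth muscle of the head and great vessels, to pericytes and to the corneal endothelium.

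Total counts ran from 27389292 to 47967113 per library, so that 3 counts amounted to between 0.0625 and 0.11 CPM, counts scaled to a common library total. The crest marker Sox10 was at no more than 0.0545 CPM in iCEC and 0.444 CPM in pCEC, against 16.9 to 52.1 CPM in pNCC. Not all crest markers followed it. Of 9, edgeR called 6 lower in iCEC than in pNCC (against 15.1% of all genes), while Pax3, Snai2 and Tfap2b did not pass. In pCEC, 7 were called lower than in pNCC (32.2%) and Tfap2b higher (30.3%), while Ngfr did not pass. The libraries labelled pCEC held the corneal surface keratin Krt12 at 8974 to 11145 CPM beside the endothelial collagen Col8a2 at 37.6 to 152.8 CPM, so their label is kept here as a name only. All 3 iCEC libraries held the keratin Krt5 at 3745 to 9345 CPM, with Col8a2 at no more than 0.119 CPM. Corneal endothelium markers went both ways. Of 12, 5 were called higher in iCEC than in pNCC (against 16.1% of all genes) and 3 lower (15.1%), Col8a2 among these 3. In iCEC vs pCEC, 1 was called higher (10.5%) and 3 lower (9.92%). In pCEC vs pNCC, 7 were called higher (30.3%) and 2 lower (32.2%). The labels call the molecule total RNA for pCEC 2 and pCEC 3 and polyA RNA for the other libraries. Nothing in them ties a replicate to its own animal or culture. The p-values therefore reflect library-to-library spread, which may be technical. In such bulk samples, fewer cells of a type and less RNA per cell cannot be told apart.

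The stretches around the start sites of 4 members are shown, because these genes span the patterns found: Acta2 and Myl9 were lower in iCEC and pCEC than in pNCC, Tpm1 was lower in pCEC, and Tpm2 did not pass in any comparison. Each runs 5′ to 3′ on the gene's strand from 250 bases before to 50 bases after the start, as RefSeq gives it on GRCm38.p6. Capitals mark each run of 10 bases that has at most 1 base different from the CArG box.
Acta2 (chr19:34255324-34255623, minus strand): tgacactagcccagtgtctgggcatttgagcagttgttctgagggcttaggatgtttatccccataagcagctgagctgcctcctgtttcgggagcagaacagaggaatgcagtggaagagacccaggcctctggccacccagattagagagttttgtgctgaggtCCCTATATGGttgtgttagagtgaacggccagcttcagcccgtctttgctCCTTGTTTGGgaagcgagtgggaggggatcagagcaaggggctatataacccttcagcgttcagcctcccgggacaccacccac
Myl9 (chr2:156775214-156775513, plus strand): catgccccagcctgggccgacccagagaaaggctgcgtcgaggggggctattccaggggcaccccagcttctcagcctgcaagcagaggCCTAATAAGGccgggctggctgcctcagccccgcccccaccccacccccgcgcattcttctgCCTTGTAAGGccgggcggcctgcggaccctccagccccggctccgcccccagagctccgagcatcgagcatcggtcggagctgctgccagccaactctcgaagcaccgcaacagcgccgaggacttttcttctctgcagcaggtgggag
Tpm1 (chr9:67049164-67049463, minus strand): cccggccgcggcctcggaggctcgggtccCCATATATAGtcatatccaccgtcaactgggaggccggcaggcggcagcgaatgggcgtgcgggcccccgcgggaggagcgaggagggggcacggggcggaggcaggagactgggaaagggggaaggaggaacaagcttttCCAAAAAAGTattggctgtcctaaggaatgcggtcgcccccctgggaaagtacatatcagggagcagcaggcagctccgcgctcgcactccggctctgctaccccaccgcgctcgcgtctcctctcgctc
Tpm2 (chr4:43523505-43523804, minus strand): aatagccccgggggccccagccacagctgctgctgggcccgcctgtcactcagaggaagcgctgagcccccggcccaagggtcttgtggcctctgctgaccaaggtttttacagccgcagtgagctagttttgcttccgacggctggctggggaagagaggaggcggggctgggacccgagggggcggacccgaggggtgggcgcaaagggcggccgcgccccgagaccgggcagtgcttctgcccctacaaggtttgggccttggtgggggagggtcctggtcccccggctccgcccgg
The Acta2 promoter held CCCTATATGG at position -84 and CCTTGTTTGG at position -34, counted from the start site, each with 1 base different from the box. Myl9 held the only exact CArG box among the 7 members with a RefSeq promoter, CCTAATAAGG at position -161, and CCTTGTAAGG at -99. The Tpm1 stretch held CCATATATAG at -221 and CCAAAAAAGT at -80, and the Tpm2 stretch held no such run. RefSeq promoters were given for 7 of the 10 members, with none for Tagln, Myh11 and Actg2. Those of 5 genes (Acta2, Myl9, Tpm1, Cald1 and Lmod1) held a run with at most 1 base different. Like Tpm2, Cnn1 held no such run, and Cnn1 was called lower in iCEC and pCEC than in pNCC. Among all 32851 promoters of the same length, 21.1% held such a run and 1.63% an exact box. The MCAT motif CATTCC, searched on both strands as was the box, lay in the promoters of 4 members (Acta2, Cald1, Lmod1 and Tpm1) and in 14.7% of all promoters. Matches describe these letters only.

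As a sum, the set was highest in pNCC. The summed level of the 10 members was 1469, 1525 and 2407 CPM in iCEC 1, 2 and 3, and 206, 273 and 283 CPM in pCEC 1, 2 and 3, against 3458, 5504 and 6074 CPM in pNCC 1, 2 and 3. The groups did not overlap, and iCEC lay between the other two. In iCEC, 6 of the 10 members were lower than in pNCC and 4 did not pass, while 15.1% of all 16293 genes tested were called lower, 16.1% higher and 31.3% in either direction. In pCEC, 9 of 10 were lower than in pNCC, against 32.2% of 16608 genes (30.3% were called higher and 62.5% in either direction). Between iCEC and pCEC, 5 members were higher in iCEC, against 10.5% of 16278 genes (20.4% in either direction), 3 did not pass, and Actg2 and Lmod1 had too few counts to be tested. With pCEC 1, the polyA library, as the only pCEC library, none of these 5 passed (adjusted p = 0.132 for Acta2, 0.0988 for Tpm1, 0.118 for Cald1, 0.215 for Myl9 and 0.258 for Cnn1 by edgeR), and neither did any other gene. The first 2 comparisons share the pNCC libraries, and each pair of comparisons shares 1 group. edgeR's quasi-likelihood test called no member lower in iCEC than in pCEC, and neither did the DESeq2 Wald test. None reached an unadjusted p under 0.05 in that direction. Of all genes tested there, 9.92% were called lower by the stricter adjusted p under 0.05.

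**Figure D1:**
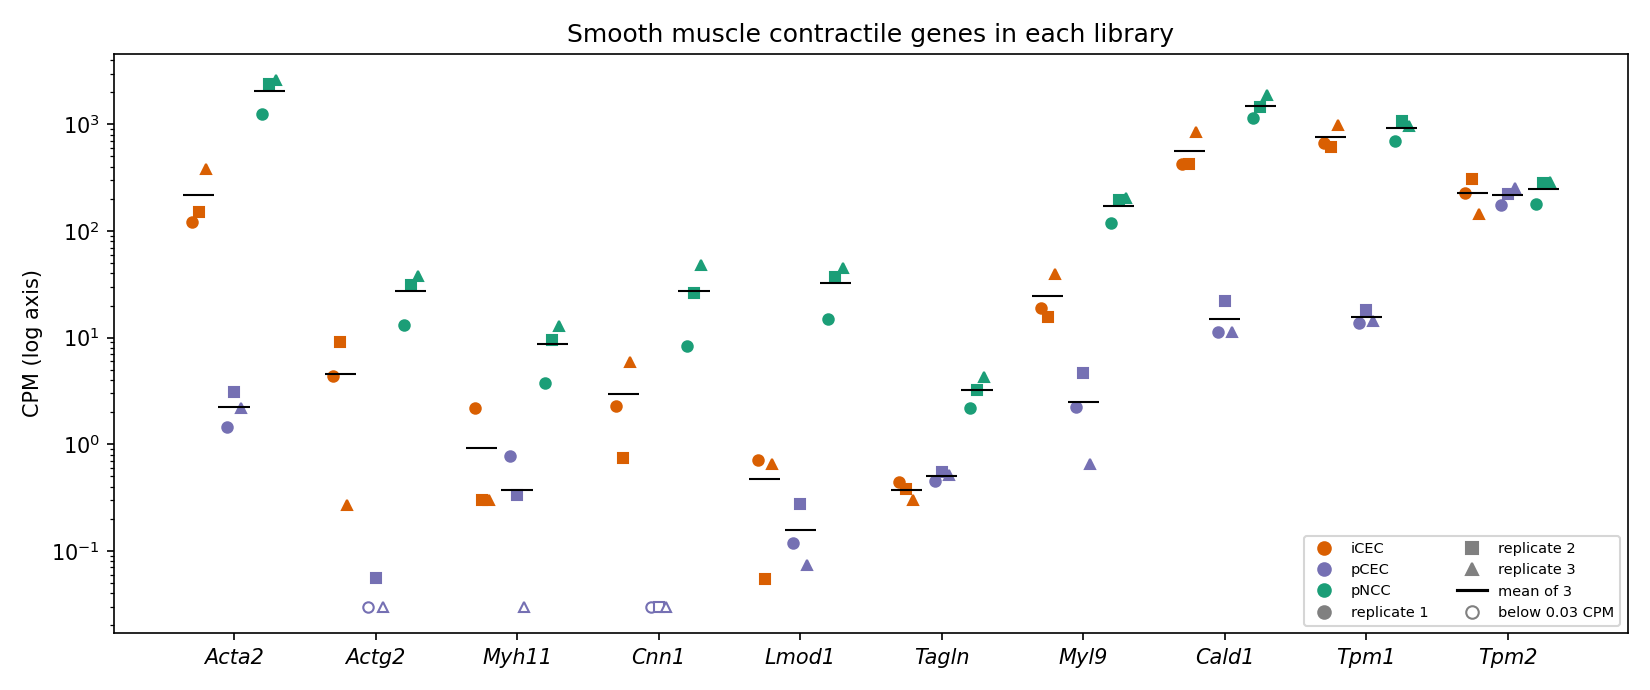
Level in CPM of the 10 members in each library on a log axis, with iCEC left, pCEC in the middle and pNCC right for each gene. Symbols are single libraries, black lines are means of 3, and open symbols lie below 0.03 CPM. Acta2 stood at 121 to 379 CPM in iCEC and 1.44 to 3.11 CPM in pCEC, against 1253 to 2590 CPM in pNCC, while Tpm2 overlapped between all groups.

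The median log2 fold change of the members was -2.97 in iCEC vs pNCC, where the median of all genes tested was 0.05. It was -6.24 in pCEC vs pNCC (all genes -0.01) and 4.12 over the 8 members tested in iCEC vs pCEC (all genes 0.04), or 4.06 with Cnn1 set to its lower bound. Without overlap between the libraries of the groups, 8 of 10 members lay lower in iCEC than in pNCC (25.9% of all genes tested did so, and 25.1% lay higher), 9 of 10 lower in pCEC than in pNCC (39.9%, and 30.8% higher), and 6 of 10 higher in iCEC than in pCEC (24.4%). Tagln was the one member that lay lower in iCEC than in pCEC without overlap, as did 19.4% of all genes. Its margin was narrow, at 0.298 to 0.438 CPM in iCEC against 0.449 to 0.555 CPM in pCEC. By edgeR Tagln did not pass there (log2 fold change -0.55, adjusted p = 0.4935). The list was chosen with results of these data known, and these counts describe it without a test of the list.

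**Figure D2:**
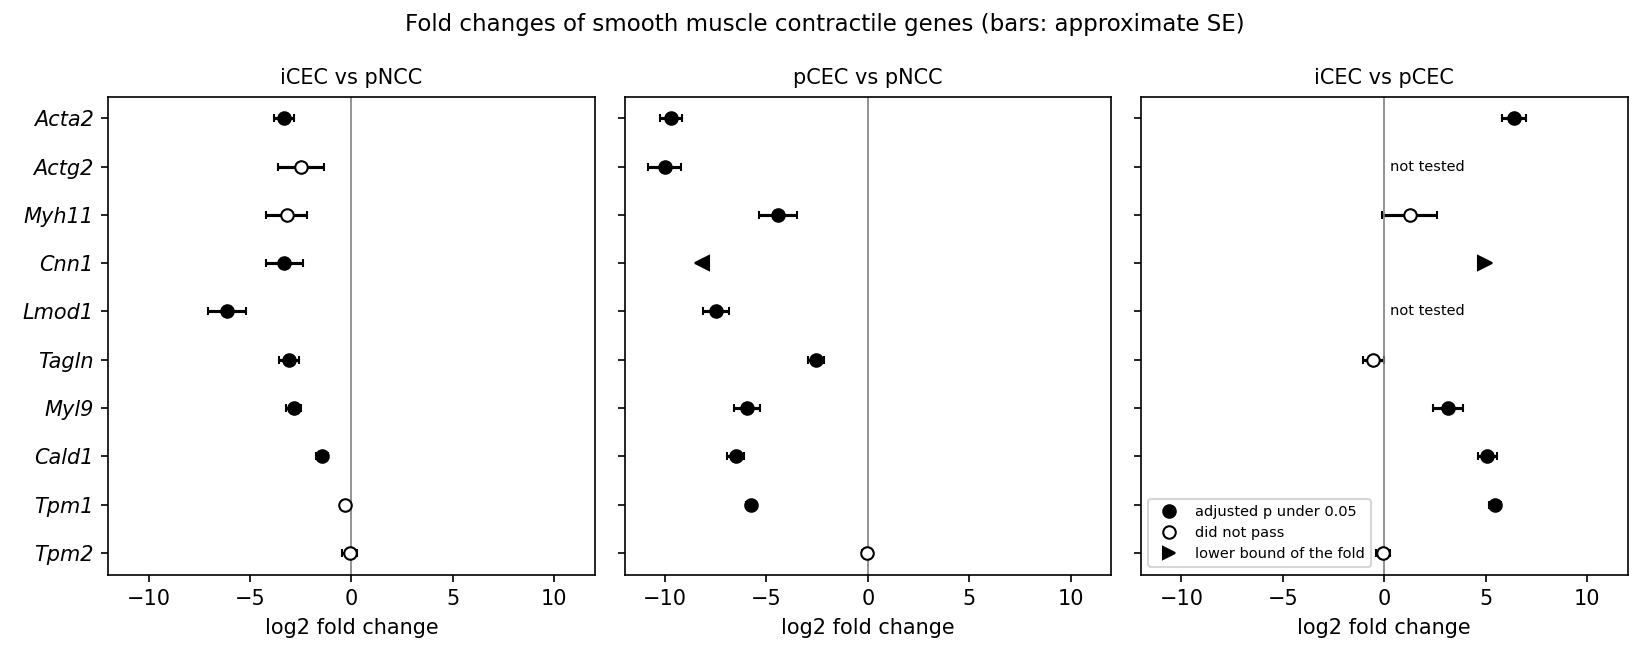
Log2 fold changes of each member in the 3 comparisons, with approximate standard errors as bars. Filled circles passed an adjusted p of 0.05, open circles did not, and triangles mark the lower bound of a fold for Cnn1, which was at 0 in every pCEC library. Tpm1 stood near 0 in iCEC vs pNCC and at -5.77 in pCEC vs pNCC.

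Levels per length differed widely between the members. In pNCC, Acta2 was the highest at 944 ± 327 CPM per kilobase of exon (SD, n = 3). Myl9 followed at 148 ± 39.6, Tpm1 at 142 ± 29.8 and Cald1 at 124 ± 29.7 CPM per kilobase, levels whose SD ranges overlapped. Tpm2 stood at 85.8 ± 20.6 CPM per kilobase in pNCC, and its SD range overlapped that of Cald1. Actg2, Cnn1 and Lmod1 stood between 8.20 and 17.6 CPM per kilobase, again with overlapping SD ranges, and Tagln and Myh11 were lowest at 1.63 and 1.15 CPM per kilobase. The order was different in iCEC, where Tpm1 led at 117 ± 31.9 CPM per kilobase, followed by Acta2 at 98.6 ± 64.5 and Tpm2 at 77.7 ± 27.6, which overlapped. In pCEC, Tpm2 stood alone at 74.9 ± 13.52 CPM per kilobase, and the next gene, Tpm1, was at 2.38 ± 0.387.

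Acta2 (chromosome 19, 34241090 to 34255590, minus strand, mm10) encodes the α-actin of vascular smooth muscle and myofibroblasts. It stood at 121, 149 and 379 CPM in iCEC 1, 2 and 3, and at 1.44, 3.11 and 2.19 CPM in pCEC 1, 2 and 3, against 1253, 2379 and 2590 CPM in pNCC 1, 2 and 3. All 3 groups were separate, and iCEC 3 was the highest of its group. Acta2 was 10.0-fold lower in iCEC than in pNCC, a log2 fold change of -3.32 ± 0.504 (SE, adjusted p = 0.00554). In pCEC it was 842-fold lower than in pNCC (log2 fold change -9.72 ± 0.529, adjusted p = 1.002e-05), or -10.47 with the polyA pCEC library alone. It was 85.3-fold higher in iCEC than in pCEC (6.41 ± 0.602, adjusted p = 0.00248), and the log2 fold change was 7.19 with the polyA pCEC library alone.

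Actg2 (chromosome 6, 83512905 to 83536265, minus strand) encodes the γ-actin of visceral smooth muscle. It had 4.38, 9.07 and 0.268 CPM in iCEC 1, 2 and 3, and 2 counts in all in pCEC, both in pCEC 2, against 12.99, 31.1 and 38.0 CPM in pNCC 1, 2 and 3. The iCEC libraries lay below those of pNCC but spread widely, and iCEC 3, the highest for Acta2, was the lowest for Actg2. The fall in iCEC did not pass (log2 fold change -2.48 ± 1.14, adjusted p = 0.152), but did without iCEC 3 (adjusted p = 0.0416). In pCEC, Actg2 was called lower (adjusted p = 5.714e-05), and its summed counts gave a 1343-fold difference with a 95% counting interval of 372 to 11099. Without pCEC 2 its fitted log2 fold change was -12.75, against -10.03 with all libraries and -9.41 without pCEC 1, and none of these is a bound.

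The share of the smooth muscle pair among all actins differed by group. Acta2 and Actg2 together held 3.44, 3.01 and 14.9% of the 6 actins per kilobase of exon in iCEC 1, 2 and 3, and 0.0422, 0.0737 and 0.043% in pCEC 1, 2 and 3, against 31.7, 38.9 and 39.7% in pNCC 1, 2 and 3. The groups did not overlap (exact 2-sided permutation p = 0.1 for each pair of groups, the smallest that 3 against 3 allows, and 0.12 adjusted over 18 such comparisons). The ubiquitous Actb did not pass in any comparison, at 965 to 2812 CPM in iCEC and 1666 to 2585 CPM in pCEC, against 1825 to 2719 CPM in pNCC. Its cytoplasmic partner Actg1 did not pass in iCEC vs pNCC (log2 fold change 0.59, adjusted p = 0.297) and was higher in pCEC than in pNCC (0.88, adjusted p = 0.014). The striated muscle actin Acta1 stood at 0.268 to 0.584 CPM in iCEC, against 26.3 to 69.3 CPM in pNCC, and was 111-fold lower in iCEC. Actc1, the actin of heart muscle, was at 0 in every iCEC and pCEC library, against 1.63 to 13.2 CPM in pNCC. It was called lower in iCEC (at least 117-fold, adjusted p = 0.0119) and in pCEC (at least 96.9-fold, adjusted p = 0.0033).

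Myh11 (chromosome 16, 14194535 to 14291372, minus strand) encodes the smooth muscle myosin heavy chain, the most restricted marker of mature smooth muscle. It had 2.17, 0.30 and 0.298 CPM in iCEC 1, 2 and 3, and 0.778, 0.333 and 0 CPM in pCEC 1, 2 and 3, against 3.76, 9.56 and 12.9 CPM in pNCC 1, 2 and 3. Both groups lay below pNCC and overlapped each other. In iCEC the difference from pNCC did not pass (log2 fold change -3.20 ± 1.01, adjusted p = 0.0563), but did without iCEC 1 (adjusted p = 0.0134). In pCEC Myh11 was 21.4-fold lower than in pNCC (log2 fold change -4.42 ± 0.946, adjusted p = 0.005496), a value of -5.37 without pCEC 1 and -3.47 with pCEC 1 alone. Among myosin II heavy chains Myh11 never held more than 1.01% of the family per kilobase. Most of the remainder in pNCC was Myh9 (79.2 to 83.9%), and the epithelial Myh14 held 26.9 to 46.0% in iCEC and 68.2 to 72.9% in pCEC, against 0.0374 to 0.0408% in pNCC. The nonmuscle heavy chain Myh10 had 9.51, 1.80 and 49.4 CPM in iCEC 1, 2 and 3, and 24.0 to 31.5 CPM in pCEC, against 263.7 to 284.4 CPM in pNCC. It was lower than in pNCC in iCEC (log2 fold change -3.88, adjusted p = 0.0361) and in pCEC (-3.18, adjusted p = 3.146e-06).

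Myl9 (chromosome 2, 156775420 to 156781658, plus strand) encodes the regulatory light chain of smooth muscle myosin, whose phosphorylation starts contraction. It had 19.0, 15.7 and 39.6 CPM in iCEC 1, 2 and 3, and 2.21, 4.63 and 0.657 CPM in pCEC 1, 2 and 3, against 119, 194 and 202 CPM in pNCC 1, 2 and 3. The 3 groups were separate. Myl9 was 7.18-fold lower in iCEC than in pNCC (log2 fold change -2.84 ± 0.371, SE, adjusted p = 0.00349) and 62.2-fold lower in pCEC than in pNCC (-5.96 ± 0.652, adjusted p = 0.000232, -6.76 without pCEC 2). It was 8.90-fold higher in iCEC than in pCEC (log2 fold change 3.15, adjusted p = 0.029). That call was lost without iCEC 1 (adjusted p = 0.0552), pCEC 1 (0.11) or pCEC 3 (0.0602), and the log2 fold change was 3.99 without pCEC 2. Per kilobase, Myl9 held 22.8, 14.1 and 43.8% of the 3 regulatory light chains in iCEC 1, 2 and 3, and 6.48, 13.3 and 1.83% in pCEC 1, 2 and 3, against 77.6, 82.1 and 81.6% in pNCC 1, 2 and 3. These shares did not overlap between groups (exact permutation p = 0.1 for each pair, the smallest possible here). The nonmuscle light chain Myl12a, which held most of the rest, did not pass in iCEC vs pNCC (log2 fold change 0.70, adjusted p = 0.145) or in pCEC vs pNCC (-0.31, adjusted p = 0.135). Myl12b was 9.33-fold higher in iCEC than in pNCC (adjusted p = 0.0155) and 4.29-fold higher in pCEC than in pNCC (adjusted p = 0.000274). Its level is uncertain, because 2 annotated genes carry this symbol and 26.7% of the exon bases of the one used are also exon of other genes.

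**Figure D3:**
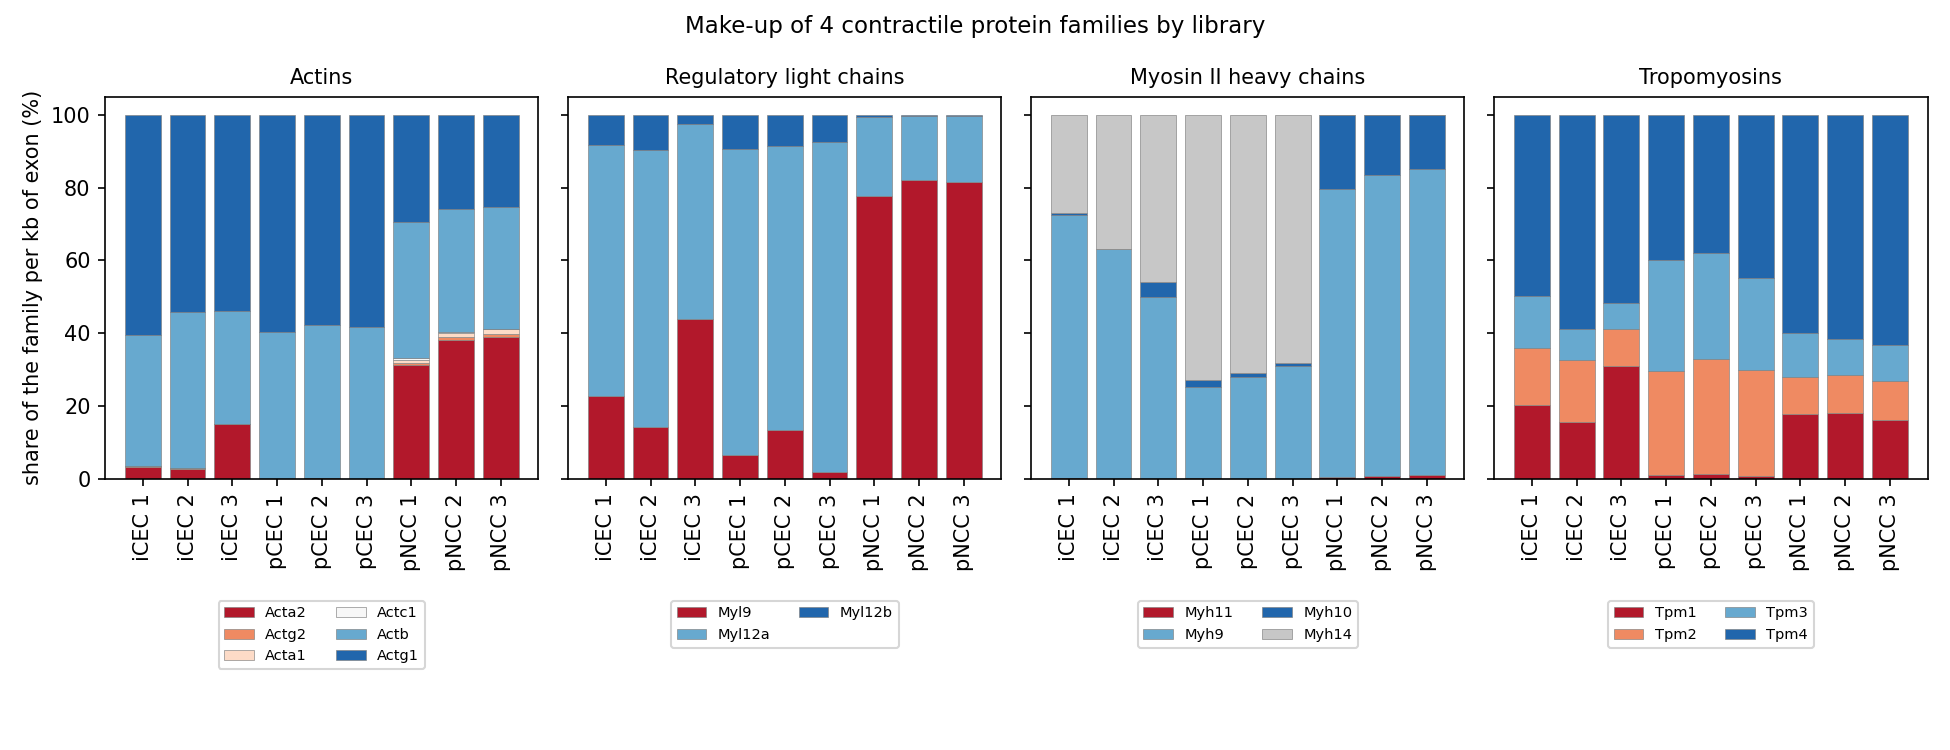
Share of each gene in its family, per kilobase of exon, for actins, myosin regulatory light chains, myosin II heavy chains and tropomyosins, as stacked bars that add up to 100% in each library. Red marks the smooth muscle member (Acta2, Myl9, Myh11, Tpm1). Myl9 made up 14.1 to 43.8% of the light chains in iCEC, against 77.6 to 82.1% in pNCC.

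Cnn1 (chromosome 9, 22099216 to 22109630, plus strand) encodes calponin, an actin-binding protein that restrains the myosin motor. It had 2.29, 0.736 and 5.86 CPM in iCEC 1, 2 and 3 and was at 0 in every pCEC library, against 8.33, 26.0 and 48.3 CPM in pNCC 1, 2 and 3. All iCEC libraries lay below pNCC, although iCEC 3 and pNCC 1 came close to each other. Cnn1 was called lower in iCEC than in pNCC (log2 fold change -3.32 ± 0.907, adjusted p = 0.0363). This call was lost without iCEC 1 (adjusted p = 0.103), iCEC 2 (0.0707), pNCC 2 (0.0965) or pNCC 3 (0.117), and the log2 fold change was -4.13 without iCEC 3 and -2.62 without pNCC 3. In pCEC Cnn1 was at least 293-fold lower than in pNCC (adjusted p = 0.00146), with the 0 replaced by 3 counts in each library. It was at least 31.5-fold higher in iCEC than in pCEC (adjusted p = 0.0198), a call lost without iCEC 1 (adjusted p = 0.0526), pCEC 1 (0.0591), pCEC 2 (0.06) or pCEC 3 (0.0589). Per kilobase, Cnn1 held at most 1.27% of the 3 calponins in iCEC, against at most 4.56% in pNCC, and its paralogs, which many cell types use, held the rest. Cnn2 stood at 125 to 221 CPM in iCEC and 49.0 to 97.4 CPM in pCEC, against 451 to 608 CPM in pNCC. Cnn2 was lower in iCEC than in pNCC (log2 fold change -1.68, adjusted p = 0.00497), and Cnn3 did not pass (-0.25, adjusted p = 0.513).

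Cald1 (chromosome 6, 34598500 to 34775473, plus strand) encodes caldesmon, which binds actin, myosin and tropomyosin and has a smooth muscle and a nonmuscle isoform that gene counts do not tell apart. It had 429, 426 and 839 CPM in iCEC 1, 2 and 3, and 11.3, 22.2 and 11.4 CPM in pCEC 1, 2 and 3, against 1158, 1464 and 1871 CPM in pNCC 1, 2 and 3. The groups were separate, with iCEC 3 again the highest of iCEC. The difference between iCEC and pNCC was small beside that of Acta2, at 2.72-fold lower (log2 fold change -1.45 ± 0.306, adjusted p = 0.0159), and was lost without pNCC 2 (adjusted p = 0.061) or pNCC 3 (0.0599). In pCEC Cald1 was 91.9-fold lower than in pNCC (-6.52 ± 0.41, adjusted p = 1.639e-05), and it was 34.0-fold higher in iCEC than in pCEC (5.09 ± 0.452, adjusted p = 0.00215).

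Lmod1 (chromosome 1, 135324807 to 135368065, plus strand) encodes leiomodin, which starts actin filaments in smooth muscle. It had 0.709, 0.0545 and 0.655 CPM in iCEC 1, 2 and 3, and 0.12, 0.277 and 0.073 CPM in pCEC 1, 2 and 3, against 14.8, 37.0 and 45.3 CPM in pNCC 1, 2 and 3. Both groups were far below pNCC and overlapped each other. Lmod1 had the largest called fold of the set in iCEC vs pNCC, at 69.8-fold lower (log2 fold change -6.12 ± 0.943, adjusted p = 0.00579). In pCEC it was 179-fold lower than in pNCC (-7.49 ± 0.648, adjusted p = 7.794e-05, -8.18 without pCEC 2). Its paralogs Lmod2 and Lmod3 of striated muscle were too low to be tested, at no more than 0.272 CPM in iCEC and 0.0598 CPM in pCEC, against 0.0571 to 1.82 CPM in pNCC.

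Tagln (chromosome 9, 45929619 to 45936058, minus strand) encodes transgelin, or SM22α, an actin-bundling protein usually abundant in smooth muscle cells. It was listed at 21, 14 and 10 counts in iCEC 1, 2 and 3, and 15, 20 and 14 counts in pCEC 1, 2 and 3, against 71, 111 and 149 counts in pNCC 1, 2 and 3. Both groups lay below pNCC, 8.51-fold lower in iCEC (log2 fold change -3.09 ± 0.503, adjusted p = 0.00674) and 5.86-fold lower in pCEC (-2.55 ± 0.398, adjusted p = 0.00112). Of the exon bases of Tagln in GENCODE M21, 67.9% are also exon of another gene on the plus strand, 62.4% of Gm48529, an antisense gene, and 5.4% of Pcsk7. Of its transcript windows of 150 bases, the read length, 40.2% also lie in a transcript of Gm48529. The other 9 members shared no exon base and no such window with another gene. Gm48529 itself had 10 to 54 counts in iCEC and 39 to 71 counts in pCEC, against 85 to 97 counts in pNCC. The strand setting and annotation of the authors' counting are not given in the sources used here, so whether reads over the shared bases were left uncounted was not tested, and the level of Tagln is uncertain. Its paralog Tagln2 stood at 368 to 588 CPM in iCEC and 112 to 220 CPM in pCEC, against 287 to 482 CPM in pNCC. Tagln3, of neurons, was at no more than 0.381 CPM in iCEC and 0.166 CPM in pCEC, against at most 0.428 CPM in pNCC.

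The tropomyosins, rod-shaped proteins along the actin filament, departed from the other members. Tpm1 (chromosome 9, 67022590 to 67049406, minus strand) had 662, 618 and 996 CPM in iCEC 1, 2 and 3, and 13.8, 18.3 and 14.2 CPM in pCEC 1, 2 and 3, against 706, 1081 and 974 CPM in pNCC 1, 2 and 3. Tpm1 overlapped between iCEC and pNCC, and all pCEC libraries lay far below both. It did not pass in iCEC vs pNCC (log2 fold change -0.30 ± 0.234, SE, adjusted p = 0.376). It was 54.5-fold lower in pCEC than in pNCC (-5.77 ± 0.251, adjusted p = 3.321e-06) and 44.6-fold higher in iCEC than in pCEC (5.48 ± 0.289, adjusted p = 0.000645).

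Tpm2 (chromosome 4, 43514711 to 43523765, minus strand), which encodes β-tropomyosin, had 228, 305 and 145 CPM in iCEC 1, 2 and 3, and 176, 224 and 254 CPM in pCEC 1, 2 and 3, against 180, 280 and 288 CPM in pNCC 1, 2 and 3. All 3 groups overlapped. Tpm2 did not pass in iCEC vs pNCC (log2 fold change -0.10 ± 0.391, adjusted p = 0.876), pCEC vs pNCC (-0.06 ± 0.242, adjusted p = 0.839) or iCEC vs pCEC (-0.05 ± 0.361, adjusted p = 0.932), and the sign of each value changed when single libraries were left out. Both genes have muscle and nonmuscle isoforms that gene counts do not separate. Per kilobase, Tpm1 held 20.3, 15.5 and 31.0% of the 4 tropomyosins in iCEC 1, 2 and 3, and 1.01, 1.17 and 0.728% in pCEC 1, 2 and 3, against 17.8, 18.0 and 16.1% in pNCC 1, 2 and 3. Tpm2 held 28.6 to 31.8% in pCEC, against 10.1 to 10.7% in pNCC. The nonmuscle Tpm4 held a mean of 53.5% ± 4.68 in iCEC and 41.0% ± 3.56 in pCEC, against 61.6% ± 1.62 in pNCC (SD, n = 3 each). These shares depend on the union exon lengths, 6485 bases for Tpm1 and 2203 for Tpm4. In plain CPM, Tpm1 stood at 759 ± 207 and Tpm4 at 638 ± 137 in iCEC (SD). Tpm4 was lower in pCEC than in pNCC (log2 fold change -2.16, adjusted p = 0.000524) and higher in iCEC than in pCEC (1.36, adjusted p = 0.0293). Tpm3 did not pass in any comparison.

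Libraries of one group did not vary alike. In pNCC, all 10 members were lowest in pNCC 1, and 9 of them were highest in pNCC 3, with Tpm1 highest in pNCC 2. Markers of skeletal muscle ran the other way there: the summed level of 13 such markers was 5.25, 11.7 and 32.3 CPM in iCEC 1, 2 and 3, and 37.9, 51.6 and 49.4 CPM in pCEC 1, 2 and 3, against 76.2, 70.6 and 16.9 CPM in pNCC 1, 2 and 3. The muscle factors Myod1 and Myog were highest in pNCC 1 and 2, at 1.62 to 3.85 CPM. Myod1 was at 0 in iCEC and pCEC, and Myog had 2 counts in iCEC 1 and none in the other iCEC and pCEC libraries. Most of the pCEC sum was Tnni2 (35.9 to 49.3 CPM), and most of that in iCEC 3 was Cdh15 (25.3 CPM). The part of these cells in the members' values was not tested. In iCEC, 5 members (Acta2, Cnn1, Tpm1, Myl9 and Cald1) were highest in iCEC 3, whereas Tpm2 and Actg2 were highest in iCEC 2 and lowest in iCEC 3. The TGF-β responsive Ccn2 was also far higher in iCEC 3, at 1083 CPM against 35.5 and 104.5 CPM in iCEC 1 and 2. Genes of the TGF-β pathway went both ways there. Tgfb2 stood at 66.3, 59.3 and 165 CPM in iCEC 1, 2 and 3. Smad7 (15.5, 22.0 and 18.9 CPM) and Skil (52.0, 102 and 65.5 CPM) were not highest in iCEC 3. The matrix protein Postn was higher in iCEC 3, at 1616 CPM against 49.1 and 69.4 CPM in iCEC 1 and 2. Dcn (145.9 CPM against 2.50 and 3.92 CPM) and Fn1 (1924 CPM against 308 and 228 CPM) were also higher in iCEC 3. Some fibroblast markers went the other way. Col1a1 stood at 0.119 CPM in iCEC 3 against 11.9 and 13.1 CPM in iCEC 1 and 2, and Cdh11 at 0.298 CPM against 6.09 and 9.21 CPM. Col1a2 (0.238 CPM against 1.88 and 2.51 CPM) and Col3a1 (0.0595 CPM against 14.1 and 43.3 CPM) were lower in iCEC 3 as well. These are single libraries and carry no test.

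Other parts of the contractile apparatus were mostly lower as well. Of 15 further smooth muscle genes, 8 were lower in iCEC than in pNCC (against 15.1% of all genes), none was higher (16.1%) and 7 did not pass. The calcium channel Cacna1c (log2 fold change -6.95, adjusted p = 0.000241) and the kinase Prkg1, which relaxes smooth muscle (-5.43, adjusted p = 0.000376), had the smallest p-values, followed by the actin-binding Nexn (-3.29) and Synpo2 (-4.36). In pCEC vs pNCC, 13 of the 15 were lower (against 32.2% of all genes) and Mylk was higher (30.3%). Hspb6 (log2 fold change -2.52), Nexn (-2.97), Prkg1 (-3.52) and Smtn (-3.56) were among the lower ones. Mylk is the kinase that phosphorylates Myl9, and its log2 fold change in pCEC vs pNCC was 1.12 (adjusted p = 0.0162), at 27.2 to 34.9 CPM in pCEC, against 9.91 to 22.5 CPM in pNCC, and it stood at 0.876, 1.77 and 22.0 CPM in iCEC 1, 2 and 3. Smtn, the actin-binding smoothelin, was the one called gene of 11 tested in iCEC vs pCEC, against 20.4% of all genes called. It was 13.04-fold higher in iCEC (adjusted p = 0.0107).

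Focal adhesion and stress fibre genes, through which contractile cells hold on to their matrix, went both ways. Of 16 genes, 6 were lower in iCEC than in pNCC (against 15.1% of all genes), 3 were higher (16.1%) and 7 did not pass. Filamin A (Flna) was lower (log2 fold change -1.68, adjusted p = 0.00379), as was Tgfb1i1 (-3.59, adjusted p = 0.00738), and talin (Tln1) was lower too (-1.44, adjusted p = 0.00533). In pCEC vs pNCC, 13 were lower (against 32.2% of all genes) and 3 higher (30.3%). The α-actinin Actn1 was 69.3-fold lower, while its paralog Actn4 was higher (log2 fold change 2.78, adjusted p = 4.398e-05). In iCEC vs pCEC, 6 of 15 tested were higher (against 10.5% of all genes) and 1 was lower (9.92%). Actn1 (48.9-fold higher in iCEC) and Actn4 (log2 fold change -2.02) again went opposite ways.

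Factors that control smooth muscle genes were present at unequal levels. Myocardin (Myocd), the SRF partner of mature smooth muscle, had 0 counts in all iCEC and pCEC libraries and 14 counts in all in pNCC, and was not tested. SRF itself (Srf) had 38.5, 42.2 and 73.8 CPM in iCEC 1, 2 and 3, and 58.1, 60.1 and 65.2 CPM in pCEC 1, 2 and 3, against 77.1, 107 and 96.5 CPM in pNCC 1, 2 and 3. It was 1.85-fold lower in iCEC than in pNCC (adjusted p = 0.0345) and 1.39-fold lower in pCEC (adjusted p = 0.0282). The actin-sensing SRF partners Mrtfa and Mrtfb did not pass in any comparison, with log2 fold changes of 0.27 and 0.53 in iCEC vs pNCC. Tead1, which binds the MCAT motif, was lower in both groups (2.84-fold in iCEC, 3.18-fold in pCEC).

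Of the 14 regulators tested, 5 were lower (against 15.1% of all genes) and 1 was higher (16.1%) in iCEC than in pNCC. In pCEC vs pNCC, 9 of them were lower (against 32.2% of all genes) and 3 higher (30.3%). The crest and mural factor Tbx18 was lower in iCEC (log2 fold change -4.86, adjusted p = 0.0048) and at least 322-fold lower in pCEC, and Gata6 was at least 144-fold lower in pCEC. Foxf1 and Fhl2 were lower in both groups, and Mef2c was lower in pCEC (log2 fold change -5.37). Gata6 (-2.11) and Mef2c (-1.74) did not pass in iCEC vs pNCC. Csrp2 was lower in pCEC than in pNCC (-3.48), Elk3 as well (-0.62), and Tead3 was higher (0.93). Notch3, a receptor of mural cells that epithelia also use, was 7.39-fold higher in iCEC and 24.2-fold higher in pCEC than in pNCC. Klf4, which silences smooth muscle genes and is abundant in corneal epithelium, did not pass in iCEC (log2 fold change 0.72) and was 15.0-fold higher in pCEC, at 937 to 1507 CPM, against 78.9 to 115 CPM in pNCC.

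**Figure D4:**
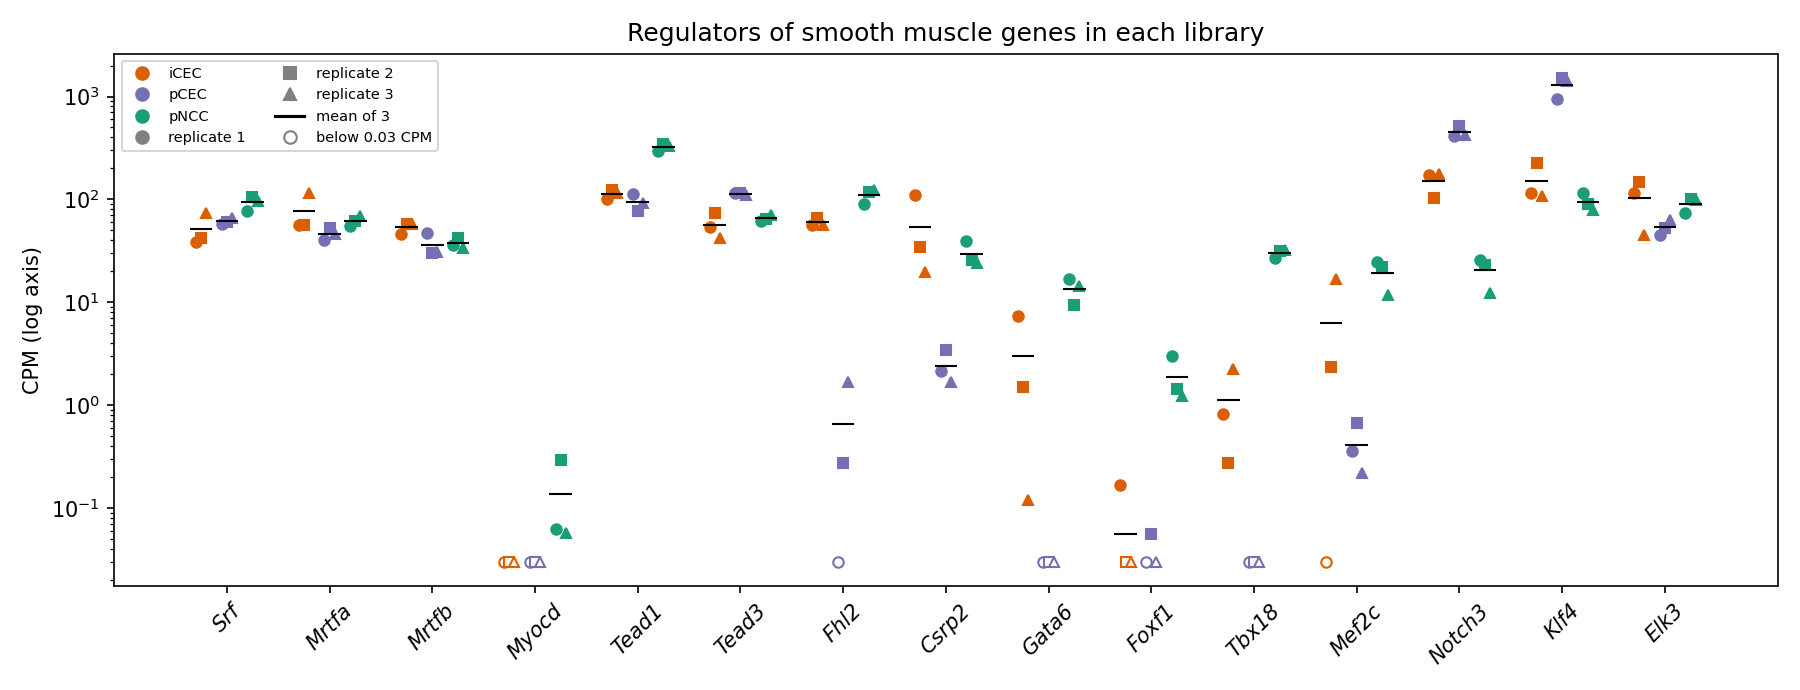
Level in CPM of 15 regulators of smooth muscle genes in each library on a log axis, with iCEC left, pCEC in the middle and pNCC right. Symbols are single libraries, black lines are means of 3, and open symbols lie below 0.03 CPM. Myocd had no count in iCEC or pCEC, Srf stood at 38.5 to 107 CPM throughout, and Klf4 was highest in pCEC.

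Since iCEC were grown with a TGF-β receptor blocker, 10 genes of that pathway were read beside the members. In iCEC vs pNCC, 3 of them fell, 1 rose and 6 missed the threshold, which is near the 31.3% of all genes called there in either direction. The receptors Tgfbr1 and Tgfbr3 were lower (log2 fold changes -1.51 and -4.66), and the ligand Tgfb2 was 7.67-fold higher. The feedback gene Smad7 did not pass (-0.74, adjusted p = 0.127), nor did Ccn2 (0.70, adjusted p = 0.681). In pCEC vs pNCC, 9 of the 10 were lower and Tgfbr1 was higher (1.14). Of all genes tested there, 32.2% were called lower and 62.5% in either direction.

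Markers of other cells differed between the groups too, and their part in the members' differences was not tested. Of 9 mural cell markers, 2 of 6 tested were lower in iCEC than in pNCC, against 15.1% of all genes. In pCEC vs pNCC, 6 of 8 tested were lower, against 32.2%, and none was called higher in either comparison. The summed level of the 9 markers was 286 to 608 CPM in iCEC and 8.74 to 36.5 CPM in pCEC, against 892 to 1018 CPM in pNCC. Pdgfrb, the receptor that marks pericytes and fibroblasts, stood at 0.0595 to 4.22 CPM in iCEC and 5.89 to 25.8 CPM in pCEC, against 707 to 842 CPM in pNCC, where it made up most of the sum. In iCEC most of the sum was Mcam and Ndufa4l2. Mcam stood at 162, 40.7 and 230.4 CPM in iCEC 1, 2 and 3, against 33.6 to 88.8 CPM in pNCC (log2 fold change 1.23, adjusted p = 0.176). Ndufa4l2 stood at 120.5, 562 and 45.3 CPM in iCEC 1, 2 and 3, all above its 11.7 to 41.4 CPM in pNCC, and did not pass (3.39, adjusted p = 0.0577). The pericyte gene Rgs5 was at most 0.218 CPM in iCEC and 2.22 CPM in pCEC, against at most 0.704 CPM in pNCC, and Higd1b had 1 count in iCEC and 1 in pCEC and none in pNCC. Of 10 fibroblast markers, 8 were lower in iCEC than in pNCC (against 15.1% of all genes) and 8 in pCEC than in pNCC (32.2%). The sum of all 10 was 370 to 3688 CPM in iCEC and 1288 to 10077 CPM in pCEC, against 38577 to 59256 CPM in pNCC. Surface epithelium markers, some of which are also keratins of myoepithelial cells, summed to 14563 to 20155 CPM in iCEC and 32445 to 45333 CPM in pCEC, against 88.6 to 137 CPM in pNCC. The myoepithelial receptor Oxtr, counted in that sum, was found at 5.27 CPM in iCEC 3 and at no more than 0.171 CPM in every other library. The summed level of 9 cardiac muscle markers was at most 41.1 CPM, reached in iCEC 2, and most of it was Tnnt2.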

How the data were processed

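Gene counts were deposited by the authors as 1 table of whole numbers for 56481 symbols and 9 libraries. Per the labels' protocols, the libraries were made with the NEBNext Ultra RNA kit and read as pairs of 150 bases. The submitters' processing notes name mm10 and edgeR. The aligner, counter, annotation and strand setting are not given in the sources used here, and reads shared between genes may be lost or split depending on them.

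The members and gene lists were chosen with earlier results of these data known. CPM is a count divided by its library's total, and CPM per kilobase divides it by the union exon length of GENCODE M21 (mm10). Each pair of groups (6 libraries) was fitted with edgeR 4.0.16 (filterByExpr, TMM scaling, robust quasi-likelihood test), with p-values adjusted by Benjamini-Hochberg over all genes tested and a threshold of 0.05. Each SE was taken as the size of the log2 fold change over the root of its F statistic. Groups at 0 were set to a floor of 3 counts per library. Family shares were compared by exact permutation. The scripts were tested on simulated counts. DESeq2 1.42.0, other scalings and filters, a replicate block, polyA libraries alone and leaving out each library were the alternatives.

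All members, their paralogs and the regulators are named, and the rule allows up to 4 called genes with the smallest adjusted p per comparison from each other list, not all of which are given. Col1a1, Cdh11, Mcam, Ndufa4l2, Mylk, Smad7, Skil, Ccn2, Postn, Tnnt2, Tnni2, Cdh15, Rgs5, Higd1b and Oxtr were named after their values were seen. So were Dcn, Fn1, Col3a1, Pax3, Snai2, Tfap2b and Ngfr. Intervals and floors cover counting error only. Same-numbered libraries did not deviate together, so the numbers were not used as pairs. One gene of the TGF-β list is counted but its values are not reported here.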

Additional observations from a re-analysis of the deposited data

How the results depend on the processing

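No member changed from lower to higher in a call. Among the members, iCEC vs pNCC gave 4 to 8 lower calls over the alternatives and pCEC vs pNCC gave 8 to 9. Leaving out 1 library at a time, iCEC vs pNCC called 2322 to 7684 genes, against 5093 with all libraries. In iCEC vs pCEC that range was 1131 to 4974 genes, against 3327, and 3 to 6 members were called higher, against 5. Same-numbered libraries did not deviate together (correlations of -0.181 to 0.071), so the numbers were not used as a pairing. With 3 libraries per group, these values cannot exclude a shared origin. With a replicate block, 2864 genes were called in iCEC vs pNCC and 1295 in iCEC vs pCEC, where 3 members were called higher. With pCEC 1, the polyA library, as the only pCEC library, which is then assumed to vary like the other groups, no gene was called in iCEC vs pCEC (0 genes and 0 members by edgeR).

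The sign of Tpm2 changed when single libraries were left out, none of these values passing. In iCEC vs pNCC its log2 fold change ran from -0.46 to 0.17 and was 0.17 without iCEC 3 and 0.03 without pNCC 3. In pCEC vs pNCC it ran from -0.27 to 0.16 and was 0.16 without pCEC 1 and 0.08 without pNCC 3. In iCEC vs pCEC it ran from -0.36 to 0.26 and was 0.26 without iCEC 3, 0.105 without pCEC 3 and 0.37 with the polyA pCEC library alone. Myh11 in iCEC vs pCEC ran from -0.39 without iCEC 1 to 2.27 without pCEC 1. The Tpm1 and Tpm2 share of tropomyosins was 3.11 percentage points higher in pCEC than in pNCC per kilobase and differed by -15.3 points in raw counts, which weigh longer transcripts more. DESeq2 called Myh11 (adjusted p = 0.00162) and Actg2 (0.0379) lower in iCEC vs pNCC. Without the filter on low counts Cnn1 did not pass in iCEC vs pNCC (adjusted p = 0.0632) or pCEC vs pNCC (0.0514). The cause of these changes was not tested. Depth limits Lmod1 in iCEC and pCEC (2 to 34 counts per library) and Actg2 in pCEC (0 to 2 counts).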

Other observations

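Among 10127 genes with a mean of at least 10 CPM, the 5 whose log2 CPM was most like the members' mean over the 9 libraries were Bin1 (Pearson r = 0.992), Nedd4 (0.990), Lrrk2 (0.988), Tsn (0.988) and Nek6 (0.987). These libraries share the 3 group levels, so the values are a description. Bin1, a protein that bends membranes, stood at 23.5 to 35.3 CPM in iCEC and 5.36 to 6.05 CPM in pCEC, against 91.2 to 114.5 CPM in pNCC. The kinase Lrrk2 stood at 6.97 to 14.9 CPM in iCEC and 0.479 to 1.47 CPM in pCEC, against 47.3 to 77.8 CPM in pNCC.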
